A study of Mus musculus with 6 samples.

Results

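Insulin-like growth factor 1 (IGF-1), its receptor and 6 of the proteins that bind it were followed in differentiated mouse brown adipocytes through the genes Igf1, Igf1r, Igfbp2, Igfbp3, Igfbp4, Igfbp5, Igfbp6 and Igfbp7. The members were all probe sets (groups of short probes on the array that read the same transcript) whose platform annotation names only 1 of these 8 symbols, which gave 24 of the 45037 probe sets on the array and 8 of the 18193 genes named there. Igf1 had 4 of them, Igf1r 5, Igfbp2 1, Igfbp3 2, Igfbp4 6, Igfbp5 2, Igfbp6 1 and Igfbp7 3. All 24 held a number on every array.

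The study compared 3 kinds of brown fat cell in culture, with 2 arrays of each that the series design calls biological replicates. The p-values measure only the spread between arrays of the same group, pooled over the 3 groups and drawn towards that of all genes. Wild-type cells carried both PGC-1 coactivators, and their titles name no siRNA. Knockout-control cells lacked PGC-1α (PGC-1alpha -/-) and expressed a control siRNA, and knockdown cells lacked PGC-1α and expressed an siRNA against PGC-1β. All were preadipocytes made immortal with the SV40 large T antigen and were harvested on day 7 of differentiation. A passage number, 4, is given for wild type, and a mixed mouse background for 1 of its arrays. The labels do not say whether each line is a single clone.

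IGF-1 is a secreted hormone of the insulin family that drives growth and survival and, in cultured preadipocytes, differentiation into fat cells. It acts through a receptor tyrosine kinase, encoded by Igf1r, that signals through the same adaptors and kinases as the insulin receptor. Binding proteins hold IGF-1 outside the cell, where they prolong its life or keep it from the receptor until proteases release it. In many tissues Igf1 transcription is raised by growth hormone. PGC-1α and PGC-1β are coactivators that drive mitochondrial genes and, in brown fat, thermogenic genes.

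Ppargc1b, which encodes PGC-1β and had 1 probe set, read 2850 and 3162 in wild type, 1862 and 2302 in knockout-control and 534 and 224 in knockdown cells. Its fall between the last 2 groups passed (log2 fold change -2.47 ± 0.32 SE, limma adjusted p = 0.022), though not without knockout-control array 1 or 2 (limma adjusted p = 0.122 and 0.146) or with no filter on dim genes (0.126) or the mean of each gene's probe sets (0.0605). The 5 probe sets of Ppargc1a stood at 0.553 to 0.617 of their wild-type mean in knockout-control, where the brightest did not pass (limma adjusted p = 0.125), and the labels do not say which part of the gene was deleted. In knockdown cells 1 of the 5 read 709 and 531, overlapping its 703 and 734 in wild type. The Y-linked Eif2s3y read 872 and 961 in wild type, and 6.25 and 5.13 on the knockout arrays with a number for that probe set. Genotype, cell line, sex-linked transcripts and the siRNA vector therefore cannot be told apart in any comparison with wild type. Likewise, an effect of the siRNA on other transcripts and the loss of PGC-1β cannot be told apart in the comparison of knockdown with knockout-control cells.

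In knockout-control cells Igf1 fell 4.08-fold below wild type and Igfbp3 rose 1.96-fold, on the scale of log2(intensity + 32). These were the only 2 of the 7 member genes tested that passed (limma, p adjusted by Benjamini-Hochberg over all genes tested, called when under 0.05). Over all 13652 genes tested, 2.55% were called higher and 3.5% lower. Knockdown cells differed from wild type in the same 2 members, with Igf1 down 3.18-fold and Igfbp3 up 3.07-fold, against 4% of all genes called higher and 6% lower. That comparison shares its wild-type arrays with the first. The remaining members tested, Igf1r, Igfbp2, Igfbp4, Igfbp5 and Igfbp7, passed in neither, and Igfbp6 lay below the filter on dim genes (an intensity of 164) and was not tested. The plot of member intensities shows the 8 genes side by side.

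**Figure D1:**
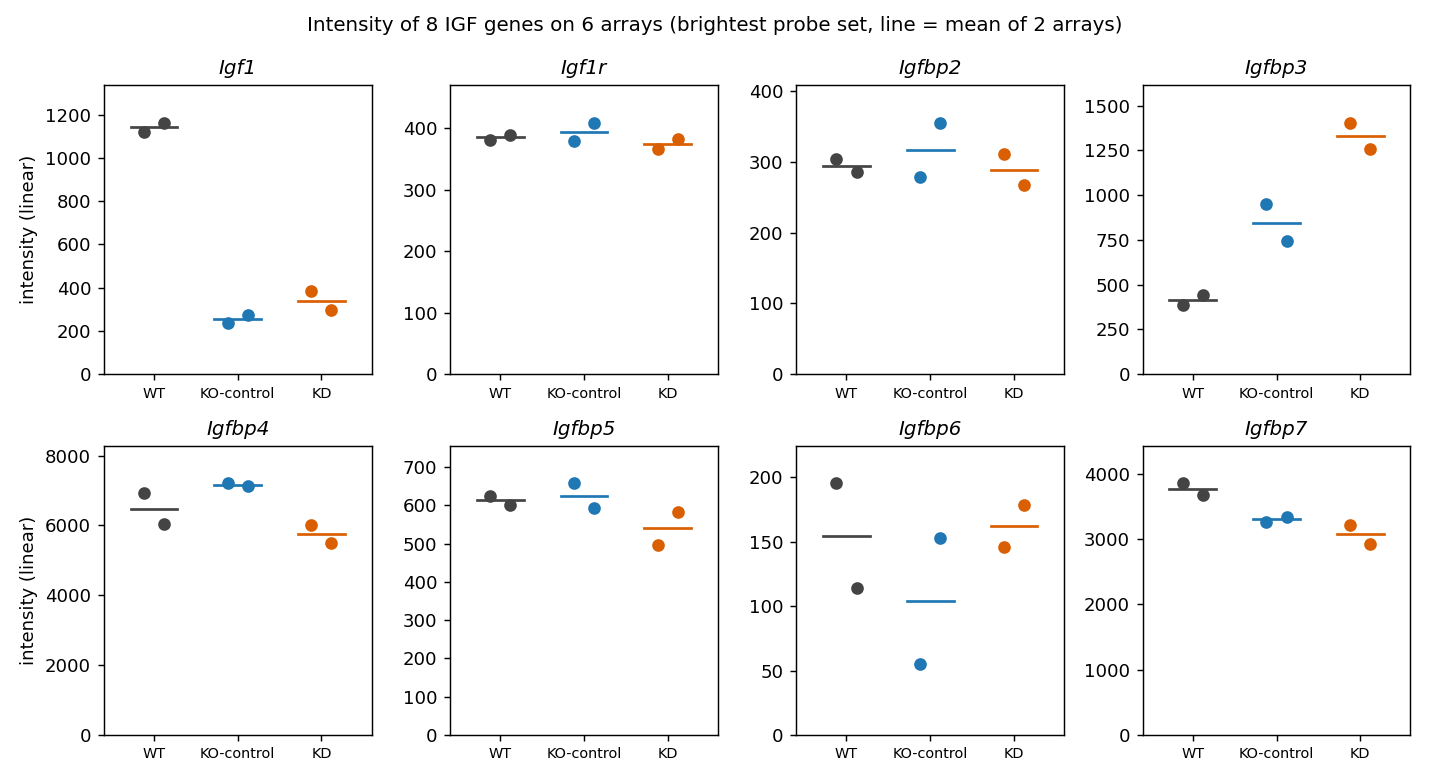
Intensity (linear axis from 0) of each member's brightest probe set on the 6 arrays; points are arrays, lines the mean of 2 arrays, WT wild type, KO-control knockout-control and KD knockdown. Igf1 sits at 1121 and 1163 in wild type and at 384 or less on the other 4 arrays, while Igfbp3 sits at 441 or less in wild type and at 742 or more elsewhere.

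The upstream sequences of the 2 members that moved are shown because they moved in opposite directions between the same cells. They are the 250 bases before the annotated start in RefSeq, build GRCm38.p6, from a table that held windows for all 8 members. The Igf1 window lies at chr10:87860861-87861110 on the + strand and the Igfbp3 window at chr11:7213924-7214173 on the - strand, each written 5′ to 3′ along the gene. Both windows lie inside their annotated genes (chr10:87858265-87937047 and chr11:7206086-7215498), so neither is the region before the gene's outermost start. Capitals mark the only match to the motifs searched, a CCAAT box on the reverse strand 142 bases before the Igf1 start.
Igf1: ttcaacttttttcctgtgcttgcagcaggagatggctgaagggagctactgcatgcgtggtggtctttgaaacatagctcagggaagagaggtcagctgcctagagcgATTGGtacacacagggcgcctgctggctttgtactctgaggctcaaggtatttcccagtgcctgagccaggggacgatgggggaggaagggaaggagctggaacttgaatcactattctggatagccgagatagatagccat
Igfbp3: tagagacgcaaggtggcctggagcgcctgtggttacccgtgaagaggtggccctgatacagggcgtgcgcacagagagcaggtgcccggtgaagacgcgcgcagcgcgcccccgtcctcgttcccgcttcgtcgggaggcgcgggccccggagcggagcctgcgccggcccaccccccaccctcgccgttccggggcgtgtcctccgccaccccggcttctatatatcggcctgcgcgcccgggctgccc
Both strands were searched for AAGGTCA (half-site of estrogen-related receptors), GCGCATGC (a core of the NRF-1 site), TGACG (the core of the cAMP response element), the CCAAT box, the TATA box with the letters TATAAA and the GC box with the letters GGGCGG. Over 32851 windows of the same length these letters occurred in 4.08%, 2.26%, 17.8%, 33.8%, 12.4% and 32.7%. The Igfbp3 window held none of them, which says only that these letters are not in this window. Bases G and C made up 52.8% of the Igf1 window and 73.2% of the Igfbp3 window, against a median of 52.4% over all windows. Of the other members, Igf1r had an AAGGTCA match on the reverse strand 86 bases before its start and 2 GC boxes, and Igfbp4 had a TATAAA match 28 bases before its start. Igfbp2 had 3 GC boxes in its window at chr1:72824230-72824479 and no match in its second window, at chr1:72825137-72825386. Igfbp7 had 4 GC boxes, Igfbp6 had 2 CCAAT boxes and 1 TATA box, and Igfbp5 had no match.

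Igf1, which encodes the hormone itself and lies at chr10:87858265-87937047 in the GRCm38.p6 gene table, was read by 4 probe sets. The brightest read 1121 and 1163 in wild type, 238 and 275 in knockout-control and 384 and 296 in knockdown cells. Both knockout groups lay far below wild type without overlap, and the knockdown arrays lay above both knockout-control arrays. The group means were 1142 ± 29.2 (SD, n = 2), 256 ± 26.5 and 340 ± 62.2. The fall from wild type to knockout-control was -2.03 ± 0.16 SE on the log2 scale (95% interval -2.40 to -1.65, limma adjusted p = 0.000494) and ranked 20 from the lowest among 13652 genes. From wild type to knockdown it was -1.67 ± 0.16 (-2.05 to -1.29, limma adjusted p = 0.000935). With each array left out in turn both falls stayed past the threshold, at -2.12 to -1.93 and -1.84 to -1.50.

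The other 3 Igf1 probe sets also fell. The second brightest read 1048 and 1112 in wild type, 224 and 190 in knockout-control and 324 and 265 in knockdown cells. The third read 664 and 749, then 193 and 233, then 422 and 332. The dimmest read 425 and 453, then 110 and 164, then 217 and 167. Every one of the 4 had its wild-type arrays highest and its knockdown arrays above its knockout-control arrays. When each probe set was fitted on its own, all 4 were called lower in knockout-control than in wild type, from -2.22 to -1.49 on the log2 scale, where 3.8% of all probe sets were called lower and 2.52% higher. The -1.49 is that of the dimmest, whose knockout-control mean of 137 lay under the filter of 164. Its call is not counted as support for the other 3. All 4 were also called lower in knockdown than in wild type, from -1.77 to -0.86, against 6.05% of all probe sets called lower and 3.88% higher. In knockdown cells the third kept 0.534 of its wild-type intensity and the second brightest kept 0.273. That difference between probe sets of 1 gene was not tested. The plot of all Igf1 and Igfbp3 probe sets gives their values relative to wild type.

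**Figure D2:**
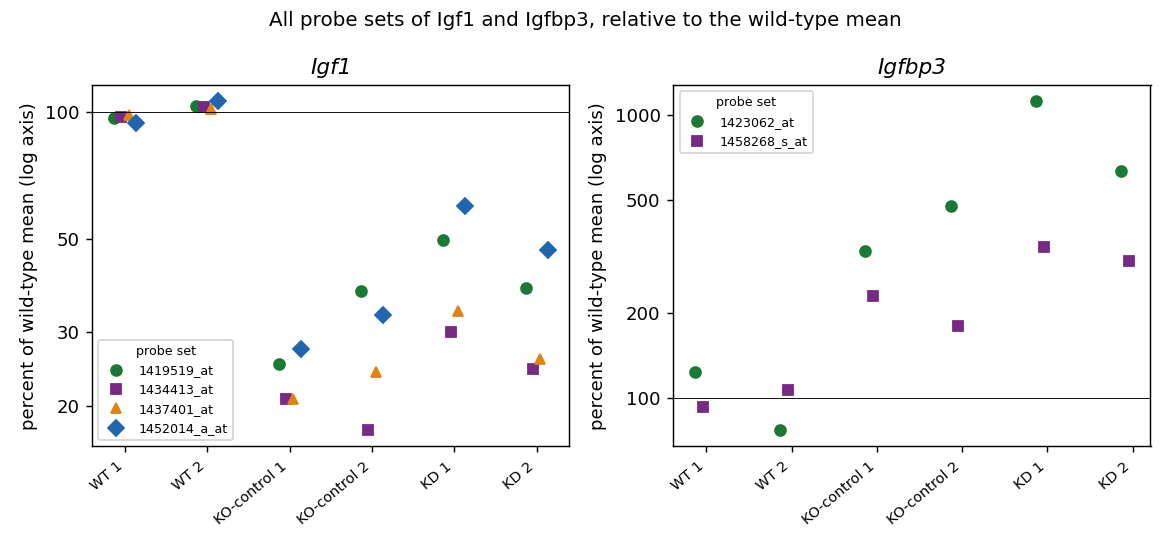
Intensity of every Igf1 and Igfbp3 probe set on each array as a percent of that probe set's wild-type mean (log axis, line at 100); WT wild type, KO-control knockout-control, KD knockdown. All 4 Igf1 probe sets lie below the line in the knockout groups, and both Igfbp3 probe sets lie above it.

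Igfbp3, at chr11:7206086-7215498, encodes the main IGF carrier of blood, which forms a complex with IGF-1 and the acid-labile subunit. Its brighter probe set read 384 and 441 in wild type, 948 and 742 in knockout-control and 1405 and 1259 in knockdown cells. The 3 groups did not overlap and stood in the order wild type, knockout-control, knockdown. The means were 412 ± 41.0 (SD, n = 2), 845 ± 145 and 1332 ± 103. The rise from wild type was 0.97 ± 0.17 SE in knockout-control (95% interval 0.59 to 1.36, limma adjusted p = 0.0138) and 1.62 ± 0.17 in knockdown cells (1.23 to 2.002, limma adjusted p = 0.00119). The second rise ranked 50 from the highest among 13644 genes and held with each array left out (1.52 to 1.71). The first did not pass when wild-type array 1 (0.88, limma adjusted p = 0.135), wild-type array 2 (1.07, 0.0668) or knockout-control array 1 (0.80, 0.119) was left out, nor with no filter on dim genes (limma adjusted p = 0.0545).

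The dimmer Igfbp3 probe set read 96.8 and 60.6 in wild type, 260 and 377 in knockout-control and 881 and 501 in knockdown cells. It kept the same order of groups without overlap. Both wild-type values lay under the filter of 164, so it passed only through the groups where it was high, and its fold is not compared with that of the brighter one. Fitted on its own, it was called higher in both comparisons with wild type. These calls depend on that filter and are not counted as support for the brighter one. The name of the brighter probe set ends in _s_at, a suffix given to probes that can match more than 1 transcript.

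Igf1r, the receptor through which IGF-1 signals, was called in no comparison. Its brightest probe set read 380 and 390 in wild type, 379 and 409 in knockout-control and 366 and 383 in knockdown cells, and all 3 groups overlapped. Its log2 fold change was 0.03 ± 0.14 SE between knockout-control and wild type (95% interval -0.28 to 0.34, limma adjusted p = 0.939) and -0.04 ± 0.14 between knockdown and wild type (-0.35 to 0.28, limma adjusted p = 0.897). A second probe set above the filter read 178 and 174, then 246 and 167, then 140 and 237, with overlap throughout. The other 3 lay below the filter, between 42.4 and 173 over all arrays.

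Igfbp4, whose protein mostly holds IGF back from its receptor and is cut by the protease PAPP-A, was read by 6 probe sets. The brightest read 6917 and 6053 in wild type, 7206 and 7143 in knockout-control and 6007 and 5502 in knockdown cells. Knockout-control was highest and knockdown lowest, with neither group overlapping wild type. None of the differences passed: 0.15 ± 0.15 SE from wild type to knockout-control (limma adjusted p = 0.633), -0.32 ± 0.15 from knockout-control to knockdown (0.373) and -0.17 ± 0.15 from wild type to knockdown (0.515). All 6 probe sets had both knockdown arrays below both knockout-control arrays, at 0.772 to 0.851 of the knockout-control mean, and none of the 6 was called. These probe sets read the same RNA and are not separate evidence.

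Igfbp7, which encodes a member of the family that binds IGFs weakly, read 3857 and 3683 in wild type, 3272 and 3342 in knockout-control and 3225 and 2930 in knockdown cells with its brightest probe set. The 3 groups lay in that order without overlap. The steps were small and none passed: -0.19 ± 0.14 SE, -0.10 ± 0.14 and -0.29 ± 0.14 (limma adjusted p = 0.506, 0.799 and 0.232). A second probe set above the filter read 376 and 371, then 401 and 391, then 401 and 252, so it stood slightly higher in knockout-control than in wild type. With the mean of its probe sets, Igfbp7 had a log2 fold change of 0.04 there (limma adjusted p = 0.931).

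Igfbp5, whose protein also binds matrix and bone mineral, read 624 and 602 in wild type, 657 and 593 in knockout-control and 497 and 584 in knockdown cells. Knockdown arrays lay below the others, by -0.20 ± 0.15 SE from knockout-control (limma adjusted p = 0.609) and -0.18 ± 0.15 from wild type (0.509). The other Igfbp5 probe set was dim and read 71.5 and 47.0, then 23.8 and 32.3, then 16.5 and 26.1. It was below the filter and untested, and with the mean of both probe sets the knockout-control value turned from 0.03 to -0.28 (limma adjusted p = 0.359).

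Igfbp2, a binding protein that preadipocytes are known to secrete, read 304 and 286 in wild type, 279 and 356 in knockout-control and 311 and 267 in knockdown cells, all overlapping. Its log2 fold changes lay between -0.12 and 0.09 in the 3 comparisons, and the lowest limma adjusted p was 0.811. Igfbp6, which prefers IGF-2, read 195 and 114, then 54.8 and 153, then 146 and 179. Its arrays overlapped in every comparison, and the 2 knockout-control arrays lay further apart than any 2 group means.

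**Figure D3:**
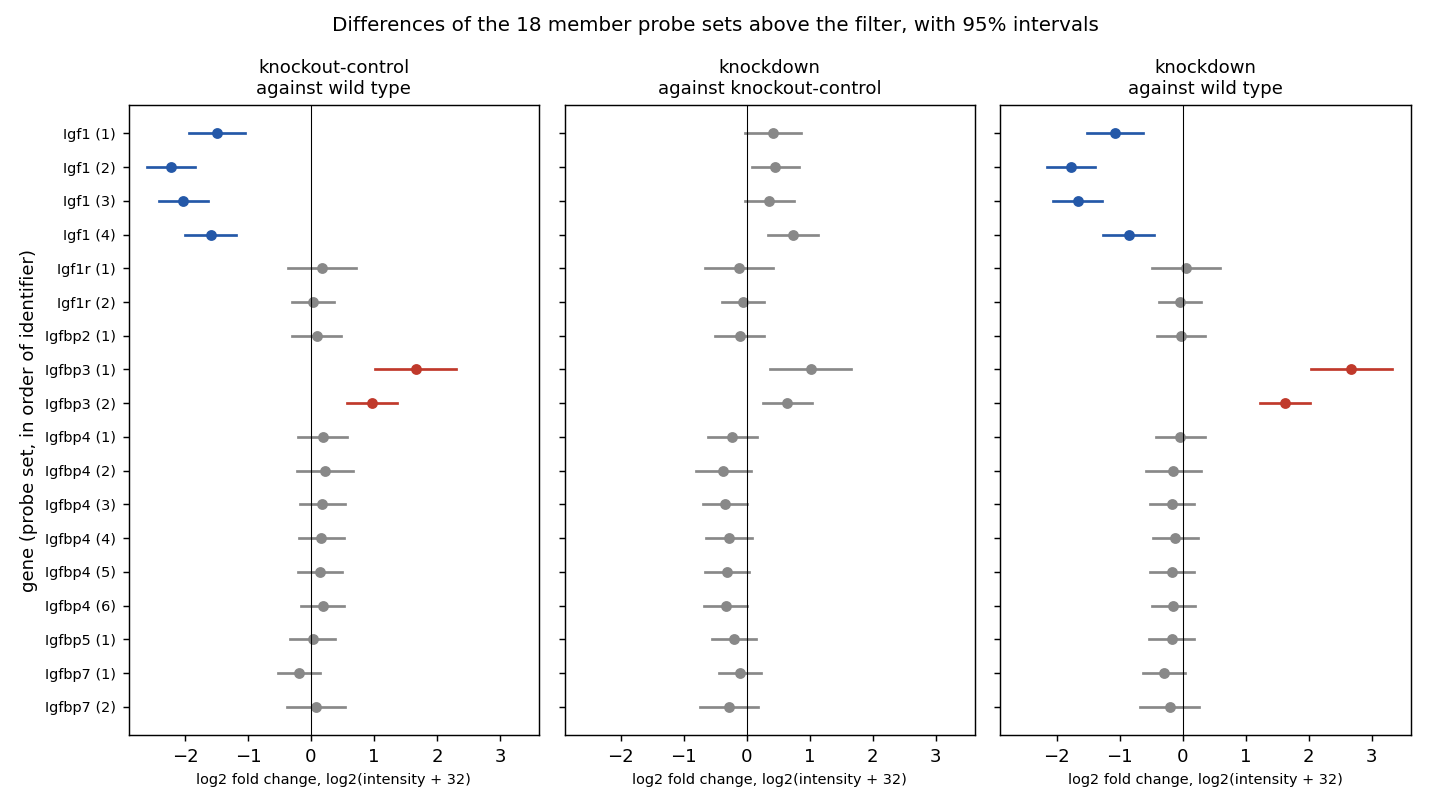
Log2 fold change on log2(intensity + 32) with its 95% interval for the 18 member probe sets above the filter, fitted each on its own; blue is called lower, red called higher and grey not called, and numbers in brackets count a gene's probe sets. The 4 Igf1 and 2 Igfbp3 probe sets are coloured in both comparisons with wild type, and none is coloured between knockdown and knockout-control. The dimmer Igfbp3 probe set passed the filter only through the groups where it was high.

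The added lowering of PGC-1β was followed by setting knockdown against knockout-control cells, both of the knockout genotype. None of the 7 members tested was called by limma, and 1 had an unadjusted p under 0.05. Few genes were called at all in this comparison, 0.271% higher and 0.564% lower of 13649. Igfbp3 had the largest difference, 0.64 ± 0.17 SE (95% interval 0.26 to 1.03, unadjusted p = 0.00448, limma adjusted p = 0.131). Igf1 stood at 0.36 ± 0.16 (-0.02 to 0.74, limma adjusted p = 0.375). Both were thus higher in knockdown cells, Igf1 back towards wild type and Igfbp3 further from it, by amounts that did not pass. The arrays of the 2 groups did not overlap for 5 of the 7 members, and did not overlap for 38.5% of all genes with 4 values. In the comparisons with wild type the arrays did not overlap for 4 of 7 members in knockout-control and 5 of 7 in knockdown cells, against 58.1% and 55% of all genes. The median log2 fold change of the 7 members was 0.03, -0.10 and -0.17 in knockout-control against wild type, knockdown against knockout-control and knockdown against wild type, beside 0.00023, -0.0073 and -0.027 over all genes tested.

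Of the other ligands, receptors and carriers of the family, the insulin receptor gene Insr rose 1.68-fold in knockout-control (448 and 444 to 717 and 830, 0.75 ± 0.17 SE, limma adjusted p = 0.0359), and 4 more tested did not pass. Over all genes tested there, 2.55% were called higher and 3.5% lower. Insr had 2 more probe sets above the filter, with log2 fold changes of -0.00087 and 0.01, and the call failed when any 1 of the 4 arrays compared was left out (limma adjusted p = 0.126 to 0.249). Igf2r, the receptor that clears IGF-2, read 532 and 510 in wild type, 615 and 677 in knockout-control and 868 and 701 in knockdown cells, and its difference from wild type in the last group did not pass (0.56 ± 0.16, limma adjusted p = 0.0589). Igf2, the other IGF hormone, read 350 to 398 over all 6 arrays. Igfbpl1 and Insrr did not pass in any comparison, with log2 fold changes between -0.12 and 0.38. Igfbp1 and Igfals, the acid-labile subunit of the IGFBP-3 complex, lay below the filter, at 53.2 to 131 and 117 to 162. In knockdown against knockout-control none of these 5 genes was called by limma, and 0 had an unadjusted p under 0.05. In knockdown against wild type none was called either, and 3 had an unadjusted p under 0.05, all higher.

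In the growth hormone axis, which controls Igf1 in many tissues, the receptor and a feedback inhibitor were called lower in knockout-control. Of 9 genes tested in knockout-control against wild type, 2 fell and 7 did not pass, at a median of -0.07. Over all genes tested there, 2.55% were called higher and 3.5% lower. Cish, a feedback inhibitor induced by growth hormone and other STAT5 signals, read 1577 and 1709 in wild type, 742 and 838 in knockout-control and 536 and 529 in knockdown cells, falling 2.04-fold in knockout-control (-1.03 ± 0.14 SE, limma adjusted p = 0.0051). Ghr, the growth hormone receptor gene, read 2798 and 2614, then 1515 and 1592, then 1308 and 1127, falling 1.73-fold in knockout-control (-0.79 ± 0.15, limma adjusted p = 0.019). Of its 3 probe sets 2 were called lower there, and the third was not (-0.39, limma adjusted p = 0.225). Both genes had all knockout arrays below all wild-type arrays. Leaving out wild-type array 2 ended the Cish call in knockout-control (limma adjusted p = 0.0746), as did leaving out knockout-control array 1 (0.0584). The Ghr call there ended when any 1 of the 4 arrays compared was left out (limma adjusted p = 0.0831 to 0.191).

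In knockdown against wild type 3 of the same 9 genes fell and 1 rose, against 6% of all genes called lower and 4% higher. Cish fell 2.96-fold (-1.57 ± 0.14 SE, limma adjusted p = 0.000623) and Ghr 2.2-fold (-1.13 ± 0.15, limma adjusted p = 0.00329), and both calls held with each array left out. All 3 Ghr probe sets were called lower there. Jak2, the kinase of that receptor, rose 1.49-fold (limma adjusted p = 0.0486), a call lost without any 1 of the 6 arrays (0.0557 to 0.314). Socs2, another feedback inhibitor, was called lower by its brightest probe set (-0.73 ± 0.18, limma adjusted p = 0.0425), which passed in 1 of the 6 fits with an array left out (limma adjusted p = 0.0233 without knockdown array 1, and up to 0.36 otherwise). A second Socs2 probe set read 205 and 206 in wild type and 372 to 587 on the other arrays and was called higher, so its probe sets disagree in direction. None of the 9 was called by limma between knockdown and knockout-control, where 2 had an unadjusted p under 0.05, both lower.

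Among 22 adaptors and kinases tested that carry the signal of the IGF-1 and insulin receptors, 1 rose, 3 fell and 18 did not pass in knockout-control, at a median of -0.14. Over all genes tested there, 2.55% were called higher and 3.5% lower. Grb14 and Grb10, adaptors that bind and restrain these receptors, fell in both knockout groups. Grb14 read 972 and 1032 in wild type, 123 and 186 in knockout-control and 133 and 80.9 in knockdown cells, and was called lower in both. Of its 4 knockout values 3 lay under the filter of 164, so it passed through wild type and no fold is given. Its calls are included in the counts of this list but are not taken as support. Grb10 read 3143 and 3379, then 800 and 1036, then 853 and 715, falling 3.49-fold and 4.05-fold (limma adjusted p = 0.000928 and 0.000437). The calls of Grb10 held with each array left out. All 3 Grb10 probe sets above the filter were called lower in both comparisons. The dimmest read 275 and 239 in wild type and 116 to 151 on the knockout arrays, all under the filter. It passed through wild type, so its calls are not counted as support for the others.

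Gsk3b, a kinase that Akt inactivates, fell 1.8-fold in knockout-control and 1.78-fold in knockdown cells, and the 3 of its 6 probe sets above the filter were called lower in both. Pik3ca, a catalytic subunit of PI3-kinase, rose 1.58-fold and 1.73-fold by 1 of its 6 probe sets. Of the others, 3 above the filter were not called and 2 lay below it. The knockout-control calls of Gsk3b and Pik3ca ended when any 1 of the 4 arrays compared was left out (limma adjusted p = 0.0541 to 0.164 and 0.128 to 0.298). Their knockdown calls were lost without wild-type array 1 or 2 (Gsk3b 0.0836 and 0.135, Pik3ca 0.144 and 0.124). In knockdown against wild type 2 rose, 4 fell and 16 did not pass, against 4% of all genes called higher and 6% lower. Irs4, a receptor substrate, was down 1.99-fold there (limma adjusted p = 0.00432), a call lost without wild-type array 2. Irs1, a main receptor substrate of fat cells, had log2 fold changes from -0.10 to 0.02 in the 3 comparisons and did not pass. Between knockdown and knockout-control none of the 22 was called by limma, and 5 had an unadjusted p under 0.05, 2 of them higher.

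Of 14 tested genes of proteases that can cut IGF binding proteins and of their inhibitors, 1 fell in knockout-control, namely Htra1, a secreted serine protease. Over all genes tested there, 2.55% were called higher and 3.5% lower. Htra1 read 966 and 915 in wild type, 294 and 364 in knockout-control and 827 and 649 in knockdown cells. It was lowest in knockout-control, and the knockdown arrays lay just below wild type, with no overlap between groups for this brightest probe set. It fell 2.71-fold in knockout-control (-1.44 ± 0.17 SE, limma adjusted p = 0.00256), a call that held with each array left out. It then rose 2.13-fold in knockdown cells over knockout-control (1.09 ± 0.17, limma adjusted p = 0.0387), a call lost when any 1 array of wild type or of knockout-control was left out. A second Htra1 probe set read 431 and 439, then 103 and 141, then 457 and 235, so its knockdown arrays overlapped wild type. It was called lower in knockout-control than in wild type, and its rise in knockdown over knockout-control was not called (limma adjusted p = 0.083). Its knockout-control values lay under the filter of 164, so it passed only through the groups where it was high. Its call is not counted as support for the brightest probe set.

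In that same comparison the matrix metalloprotease Mmp2 rose 2.23-fold (323 and 308 to 728 and 760, limma adjusted p = 0.0259), which did not pass without knockout-control array 1 or 2 (0.154 and 0.159). A second Mmp2 probe set above the filter was not called there (limma adjusted p = 0.0757). Between the knockout groups 2 of the 14 genes rose and 1 fell, against 0.271% of all genes called higher and 0.564% lower. Adamts1, a secreted metalloprotease, read 1002 and 1040 in wild type, 956 and 1114 in knockout-control and 270 and 247 in knockdown cells. It fell 3.67-fold from knockout-control to knockdown (-1.87 ± 0.15 SE, limma adjusted p = 0.00182), also with each array left out (highest limma adjusted p = 0.0339). In knockdown against wild type Mmp2 rose 2.44-fold, Adamts1 fell 3.63-fold, and 12 did not pass, against 4% of all genes called higher and 6% lower. Pappa, which encodes PAPP-A, and its inhibitor gene Stc1 did not pass in any comparison, with log2 fold changes from -0.34 to 0.21 for Pappa and -0.38 to 0.59 for Stc1. With no filter on dim genes the calls of Insr, Ghr, Gsk3b and Pik3ca in knockout-control and of Htra1 and Mmp2 between knockdown and knockout-control were lost (limma adjusted p from 0.0526 to 0.147), as were those of Jak2, Socs2 and Pik3ca in knockdown against wild type (0.0559 to 0.115). With the mean of all probe sets per gene, the calls of Insr, Ghr, Gsk3b and Pik3ca in knockout-control, Htra1 and Mmp2 between the knockout groups and Jak2, Irs4 and Pik3ca in knockdown against wild type were lost (0.0505 to 0.377), and Socs2 there turned to 0.10 (0.689). Jak2 and Socs2 also missed the threshold with a pseudocount of 1 (limma adjusted p = 0.0549 and 0.0509), and Htra1 between the knockout groups, Jak2 and Socs2 missed it with only the compared arrays fitted (0.0586, 0.06 and 0.0718).

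**Figure D4:**
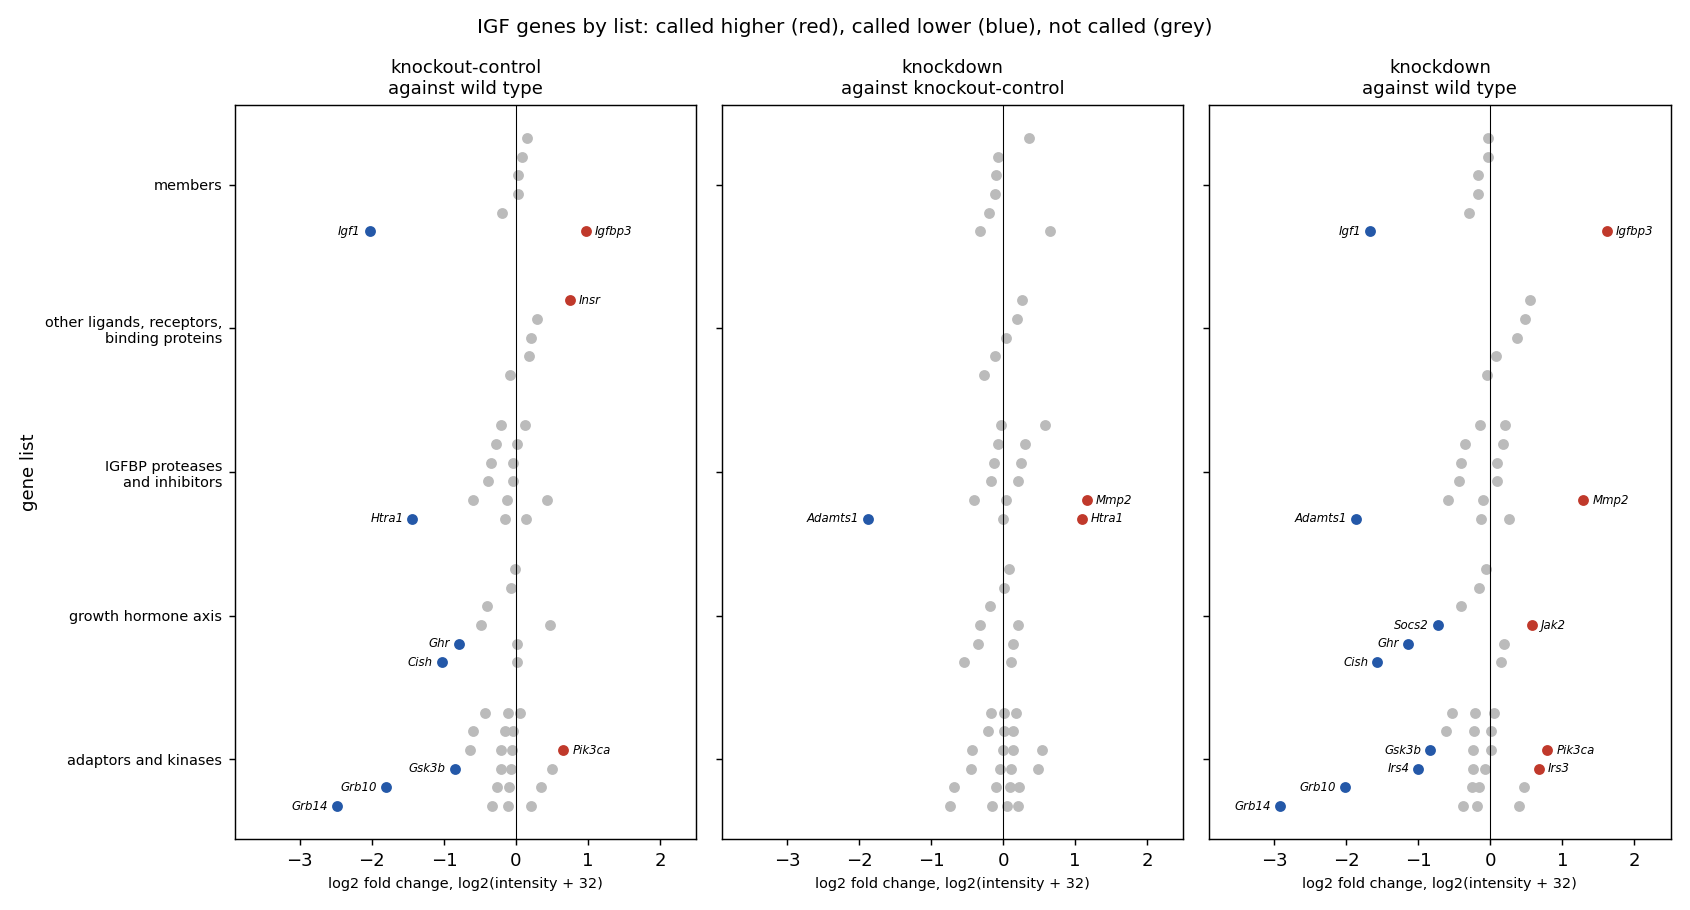
Log2 fold change on log2(intensity + 32) of the members and of 4 lists of IGF pathway genes in the 3 comparisons; each point is a gene, spread vertically only for legibility, and named where called. Igf1, Grb14 and Grb10 are the genes furthest to the left in knockout-control against wild type, and Adamts1 stands alone on the left between knockdown and knockout-control. Grb14 passed the filter through wild type.

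Markers of the cells themselves were read beside these results, as intensities summed over each list's brightest probe sets. Over all genes tested, 2.55% were called higher and 3.5% lower in knockout-control against wild type. These shares were 0.271% and 0.564% between the knockout groups, and 4% and 6% in knockdown against wild type. The sum of 10 brown adipocyte genes was 28212 and 27684 in wild type, 22923 and 23338 in knockout-control and 13797 and 10203 in knockdown cells, with 1 of the 10 called higher and 2 lower in knockout-control and 1 higher and 7 lower in knockdown cells, both against wild type. Elovl3, a fatty acid elongase of brown fat, was the one called higher, at 240 and 209, then 1686 and 1903, then 2527 and 1612. Among the 7 called lower in knockdown cells, Ucp1 read 4488 and 4761, then 4199 and 3725, then 156 and 105. Cidea read 7617 and 7172, then 7011 and 6697, then 3184 and 2796, and Dio2 442 and 390, then 480 and 409, then 62.0 and 66.7. The knockdown values of Ucp1 and Dio2 lay under the filter of 164, so both passed only through the groups where they were high. Their calls are included in the counts of this list but are not taken as support. The 7 general adipocyte genes tested passed in no comparison (limma, with 1 at an unadjusted p under 0.05 in each comparison with wild type and 0 in the other). Lep, the leptin gene and a general adipocyte marker that was not tested, read 813 and 892 in wild type, 47.4 on the knockout-control array with a number and 14.3 and 64.4 in knockdown cells. The sum of 11 preadipocyte and fibroblast genes was 8987 and 7687, then 7475 and 8090, then 11011 and 9274. Of 9 tested, 1 rose and 1 fell in knockout-control against wild type, 1 rose between the knockout groups, and 2 rose and 1 fell in knockdown against wild type. Dlk1, a preadipocyte marker, read 467 and 333, then 384 and 438, then 1609 and 1452, and was called higher in knockdown than in both other groups (limma adjusted p = 0.000872 and 0.00696). Other genes of this list stood lower than wild type. Col1a1 read 2765 and 2291, then 1417 and 1535, then 1615 and 1418, and Pdgfrb 507 and 470, then 260 and 416, then 309 and 187. At an unadjusted limma p under 0.05, 4 of the 9 were higher and 3 lower in knockdown than in wild type. The sum of 8 smooth muscle and pericyte genes was 6389 and 5861, then 4431 and 4443, then 3902 and 3796, and 3 of 6 tested fell in knockout-control. The sum of 10 macrophage genes was 3932 and 3953, then 4620 and 3730, then 3594 and 4237, with none of the 6 tested called by limma and 0 at an unadjusted p under 0.05. Among the 10, Itgam and Cd163 read 139 or less on every array with a number, while Csf1r and Adgre1 read 1604 to 2190 and 498 to 590. Cd68, which was not tested, read 98.9 and 111, then 79.9 and 117, then 213 and 200, and its knockdown arrays lay above all others. The part of these cell states in the results for Igf1 and Igfbp3 was not tested. In RNA from whole cultures, fewer cells of a type and less RNA per cell cannot be told apart.

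The genes most like each member were sought by Pearson's r of log2 values over the 6 arrays, among 1491 or 1492 complete genes with a range of at least 1 on the log2 scale. For Igf1 these were Wdr6 (r = 0.999), the immunoproteasome subunit Psmb9 (0.998) and Pcolce, an enhancer of procollagen processing (0.998). For Igfbp3 they were Adtrp (0.988), Gstz1, an enzyme of tyrosine breakdown (0.986), and the aminotransferase Gpt2 (0.984). Gstz1 read 1044 and 990 in wild type, 1999 and 1885 in knockout-control and 3248 and 2676 in knockdown cells. For Igfbp7 they were Fem1a (0.996), the helicase Dhx9 (0.994) and Opa1, which fuses mitochondrial inner membranes (0.994). The other 4 members tested ranged over 0.15 to 0.39 on the log2 scale, and their closest genes were Kdf1 for Igf1r (0.858), Tacr3 for Igfbp2 (0.930), Ptchd3 for Igfbp4 (0.953) and Rap1gapos for Igfbp5 (0.968). The 6 points come from 3 groups of 2 arrays, so such values are a description of these arrays.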

How the data were processed

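The authors deposited 1 linear intensity per probe set and array for biotin-labelled total RNA. How they were summarised and scaled between arrays: not given in the sources used here. Array medians lay between 221 and 243, and the values were not scaled again. Cells without a number (5285 reading null, 870 empty) stayed missing.

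Gene symbols came from the 2016 platform annotation and were brought up to date through Entrez identifiers and a GRCm38 gene table. Of 45037, 34945 had 1 symbol, and 34741 of these matched. The 10092 naming no gene or more than 1 were left aside. The brightest probe set stood for each of 18193 genes, and genes under the 40th percentile of mean log2(intensity + 32) were left out. That left 13658 genes, or 22731 probe sets where each was fitted on its own.

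One limma model (version 3.58.1, R 4.3.3) with group means was fitted to all 6 arrays, with 3 residual and 5.45 prior degrees of freedom. It was tested on simulated data. Adjusted p-values are Benjamini-Hochberg over all genes tested. With 2 arrays against 2, the smallest exact permutation p is 0.333, so none was used, and the number of arrays limits the precision.

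The members and lists were chosen with earlier results of these data known. Named genes were all members, the other family genes, up to 4 called genes per pathway list and comparison with the largest change, the targeted genes and the 3 genes most correlated with each member. Pappa, Stc1, Irs1, Irs3, Eif2s3y, Xist and the marker genes named were added to these. Alternatives were other pseudocounts (1 and 100), filters, probe set summaries, quantile normalization, trend and robust settings, null cells at 0, a replicate block, the compared arrays alone and each array left out.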

Additional observations from a re-analysis of the deposited data

How the results depend on the processing

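With 2 arrays per group, the count of members called in knockout-control against wild type was 2, and it was 1 with no filter on dim genes and 1 to 2 with each array left out, where Igfbp3 missed the threshold. The counts of 2 in knockdown against wild type and 0 in knockdown against knockout-control were the same under every alternative run. Igf1 kept its direction and its calls against wild type under all alternatives. Values near 0 changed sign. After quantile normalization Igf1r stood at 0.0025 and 0.024 in knockdown against knockout-control and wild type, and Igfbp2 at 0.0234 against wild type. When a gene's probe sets were averaged, the knockout-control values of Igfbp5 and Igfbp7 were -0.28 and 0.038. In knockdown against wild type Socs2 stood at 0.10 with that average and, with each probe set fitted on its own, at 0.97 for the one that changed most, while the brightest stayed at -0.73. With each array left out, Igf1r in knockout-control lay between -0.021 and 0.081, Igfbp5 between -0.044 and 0.095, and Igfbp2 between -0.071 and 0.25, between -0.27 and 0.044 (knockdown against knockout-control) and between -0.13 and 0.072 (knockdown against wild type). Deviations of replicate 1 from its group mean correlated at 0.20 and -0.15 between wild type and the 2 knockout groups, and at -0.50 between knockout-control and knockdown. Between these last 2 groups, arrays of unlike number were closer than arrays of like number. Knockout-control 2 with knockdown 1 had r = 0.967 and knockout-control 1 with knockdown 2 had 0.955, against 0.947 for both like pairs. The replicate block joins like numbers only, and a pairing across numbers was not tested. With the replicate block the members called numbered 2, 0 and 2, and over all genes 410, 22 and 729 were called, against 826, 114 and 1365 without it. Insr, Ghr and Pik3ca in knockout-control, Htra1 and Mmp2 between the knockout groups, and Jak2, Socs2 and Irs3 in knockdown against wild type then missed the threshold (limma adjusted p = 0.0562 to 0.111). Other scalings moved the median of all genes by at most 0.09 on the log2 scale. The cause of these changes was not tested.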
